A study of Mus musculus with 6 samples.

Results

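The genes described here are 43 genes of DNA replication and nucleotide synthesis: factors that license and fire replication origins, the replicative polymerases and their clamp, the enzymes that make deoxynucleotides, and factors that rebuild chromatin behind the fork. They were chosen by gene symbol, and a gene entered the comparisons if at least 1 of its probes had a detection p-value under 0.01 on at least 2 of the 6 arrays, with the brightest such probe standing for the gene. The detection p-value is the scanner software's estimate of how often a negative control bead would be as bright. By this rule 38 of the 43 genes were measured, among 8598 genes tested in all. The other members were Orc1, Cdc6, Pola1, Prim1 and Pole, whose lowest detection p-values on any array were 0.139, 0.00427, 0.0897, 0.221 and 0.00962.

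Before a cell copies its DNA, the origin recognition complex, Cdc6 and Cdt1 load the ring of MCM proteins onto origins, and cyclin-dependent kinases then switch the ring on together with Cdc45 and the GINS complex. Polymerases extend primers on both strands, held to DNA by the PCNA clamp that replication factor C loads, while ribonucleotide reductase, thymidine kinase and thymidylate synthase supply the building blocks. Many of these genes are transcribed late in G1 under E2F transcription factors, so their mRNAs are scarce in resting cells, and microglia, the resident macrophages of the brain, divide in the young brain and in culture when supplied with growth factors.

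The study compared microglia of LRRK2KO mice (strain B6.129X1(FVB)-Lrrk2tm1.1Cai/J) and Ntg mice (strain C57BL/6), isolated from the brain at postnatal day 3 and treated in vitro. Each genotype had 3 arms: lipopolysaccharide (LPS), a bacterial cell wall component that activates macrophages, for 6 h, LPS for 24 h, and 24 h with phosphate-buffered saline (PBS) as the control. For each of the 6 groups there was 1 Illumina bead array, so LPS at 6 h has a PBS reference of 24 h only, and treatment and culture time cannot be told apart in that comparison. The strain names differ in more than the Lrrk2 allele, so genotype and strain background cannot be told apart either, and the labels do not give the number of animals or cultures behind an array.

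Between 13126 and 15049 of 45281 probes were detected per array, or 29.0% to 33.2%. The array number limits precision, and because nothing in the labels says which arrays came from separate cultures, a p-value here reflects only how much these 6 arrays scatter, and that scatter may be technical. Lrrk2, which encodes the targeted kinase, was detected in 1 of the 36 values of its 6 probes, on the Ntg PBS array at a detection p-value of 0.00321, so it does not check the genotype labels. Of 13 microglial markers 11 were measured, at least 10 of them detected on every array. No marker of neurons, endothelium or lymphocytes passed the detection rule. Markers of choroid plexus, the epithelium that makes cerebrospinal fluid, differed by genotype, with a summed linear level of 257 to 717 on the LRRK2KO arrays and 2640 to 7080 on the Ntg arrays. Of the 3 summed, Wfdc2 and Ecrg4 were detected on Ntg arrays only and entered through that genotype alone, and Ttr was detected on all 6 arrays.

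RefSeq promoter windows on build GRCm38.p6, running from 250 bases before to 50 bases after a transcription start, were available for 35 of the 43 members. The letters TTTNNCGC, which cover the E2F consensus and looser relatives and were searched on both strands with overlapping matches counted, stood in the windows of 15 of these 35 genes (42.9%), against 5.93% of all 27025 genes with a window and 10.3% of the 7070 such genes that were measured. The stricter octamers TTTCCCGC, TTTCGCGC, TTTGCCGC and TTTGGCGC, all contained in the first pattern, stood in 14 of 35 members (40.0%), against 2.60% of all genes and 4.79% of measured genes. The CCAAT letters stood in 22 of 35 members (62.9%), against 41.1% of all genes and 43.1% of measured genes. TTTGAA, the core of an element found in many mitotic genes, stood in 5 of 35 (14.3%). Its share was 20.2% of all genes and 14.0% of measured genes, the latter close to that of the members. Among members lower at LPS 6 h, 9 of 23 with a window held a stricter octamer (39.1%), and among measured members with no call 2 of 8 did (25.0%), namely Cdt1 and Rfc3. Mcm2, Tk1, Chaf1a and Rrm1, which were lower at both times, have windows that hold no TTTNNCGC. A match describes letters only.

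The windows of 4 genes that were lower on both LPS arms (Mcm5, Mcm6, Pclaf and Tk1) and of 2 genes with no call on either (Cdt1 and Tyms) are shown, chosen so that each set holds a window with and a window without a stricter octamer. They are printed 5′ to 3′ in the direction of the gene, with the matches to TTTNNCGC on either strand in capitals. Mcm5, at chr8:75109259-75109558 on the plus strand, has overlapping matches that begin 153 and 149 bases before the start. Mcm6, at chr1:128359656-128359955 on the minus strand, has an overlapping pair and a separate match. Pclaf, at chr9:65890073-65890372 on the plus strand, has 1 match beginning 5 bases before the start. Tk1, at chr11:117825965-117826264 on the minus strand, has no match in the window. Cdt1, at chr8:122567765-122568064 on the plus strand, has 1 match, TTTGGCGC, beginning at base 33 of the transcript. Tyms, at chr5:30073576-30073875 on the minus strand, has 1 match, TTTGTCGC, which is not among the stricter octamers and begins at base 42 of the transcript.
Mcm5: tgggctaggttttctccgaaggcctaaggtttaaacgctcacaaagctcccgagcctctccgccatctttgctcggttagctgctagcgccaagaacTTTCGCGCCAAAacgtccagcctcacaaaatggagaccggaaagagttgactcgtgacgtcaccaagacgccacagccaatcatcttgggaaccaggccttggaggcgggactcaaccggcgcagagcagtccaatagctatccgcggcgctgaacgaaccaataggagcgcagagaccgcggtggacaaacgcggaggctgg
Mcm6: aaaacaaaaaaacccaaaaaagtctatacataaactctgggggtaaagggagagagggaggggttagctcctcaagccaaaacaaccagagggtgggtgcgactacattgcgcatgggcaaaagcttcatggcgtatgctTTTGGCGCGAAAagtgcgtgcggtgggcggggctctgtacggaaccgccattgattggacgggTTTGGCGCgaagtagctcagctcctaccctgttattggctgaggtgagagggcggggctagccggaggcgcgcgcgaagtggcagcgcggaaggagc
Pclaf: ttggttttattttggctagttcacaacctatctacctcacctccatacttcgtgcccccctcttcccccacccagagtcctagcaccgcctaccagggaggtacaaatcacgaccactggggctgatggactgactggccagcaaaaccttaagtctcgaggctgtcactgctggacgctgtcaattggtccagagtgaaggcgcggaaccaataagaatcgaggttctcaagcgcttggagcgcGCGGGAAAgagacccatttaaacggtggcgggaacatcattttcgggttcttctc
Tk1: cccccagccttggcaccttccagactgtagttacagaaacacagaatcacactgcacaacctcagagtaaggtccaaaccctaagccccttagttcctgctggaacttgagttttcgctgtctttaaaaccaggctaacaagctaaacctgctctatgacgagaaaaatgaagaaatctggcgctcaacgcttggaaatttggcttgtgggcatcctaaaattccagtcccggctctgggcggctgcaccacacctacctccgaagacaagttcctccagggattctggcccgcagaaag
Cdt1: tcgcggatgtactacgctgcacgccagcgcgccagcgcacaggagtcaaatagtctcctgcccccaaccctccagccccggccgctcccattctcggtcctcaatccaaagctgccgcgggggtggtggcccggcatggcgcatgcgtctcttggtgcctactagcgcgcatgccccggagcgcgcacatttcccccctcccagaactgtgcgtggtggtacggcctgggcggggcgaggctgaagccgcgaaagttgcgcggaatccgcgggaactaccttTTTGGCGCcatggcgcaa
Tyms: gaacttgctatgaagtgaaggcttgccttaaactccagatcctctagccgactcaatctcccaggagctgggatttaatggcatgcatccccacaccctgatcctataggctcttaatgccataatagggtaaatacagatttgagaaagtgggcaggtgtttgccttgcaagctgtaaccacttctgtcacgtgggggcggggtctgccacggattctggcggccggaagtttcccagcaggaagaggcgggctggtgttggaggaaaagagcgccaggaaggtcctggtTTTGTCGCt

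Microglia given LPS carried less mRNA of most of the measured replication genes than microglia given PBS, at both times and in both genotypes. The median member lay at a normalized log2 intensity of 6.18 on the LRRK2KO and 6.29 on the Ntg array at LPS 6 h, at 6.69 and 6.72 on the LRRK2KO and Ntg arrays at LPS 24 h, and at 7.92 and 7.97 on the LRRK2KO and Ntg arrays in PBS. A log2 unit is a doubling of intensity. With an additive limma model of genotype and arm, adjusted by Benjamini-Hochberg over all 8598 genes, 30 of the 38 measured members were lower at LPS 6 h than in PBS (78.9%), against 26.2% of all genes tested. None was higher (15.8% of all genes), also at an unadjusted p under 0.05 (19.6% of all genes). At LPS 24 h 22 members were lower (57.9%), against 8.99% of all genes, and none was higher (6.54% of all genes), again also at an unadjusted p under 0.05 (13.6% of all genes).

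The median difference of the members from PBS was -1.43 at LPS 6 h and -0.99 at LPS 24 h, against -0.13 and -0.01 for all genes. Both LPS 6 h arrays lay below both PBS arrays for 32 of the 38 members (84.2%), against 43% of all genes, and both LPS 24 h arrays did for 34 (89.5%), against 30.7% of all genes. A member detected only on the PBS arrays had to differ to enter, and 6 members did so: Mcm7, Cdc45, Gins1, Ccne2, Rrm2 and Dut. The counts over measured members are therefore a description. With each member that was below detection on the LPS arrays set at its bound, the medians were -1.38 at LPS 6 h and -0.81 at LPS 24 h. Among the 25 members detected on all 6 arrays, 20 were lower at LPS 6 h and 12 at LPS 24 h. The share lower among all genes detected on all 6 arrays was not counted, so these counts stand without a background. Without the detection rule, when all 43 listed genes and 19057 genes in all were tested, 30 members were lower at LPS 6 h (10.8% of all genes) and 20 at LPS 24 h (3.15% of all genes). In these bulk samples, fewer cells making replication mRNAs and less of the mRNA per cell cannot be told apart.

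**Figure D1:**
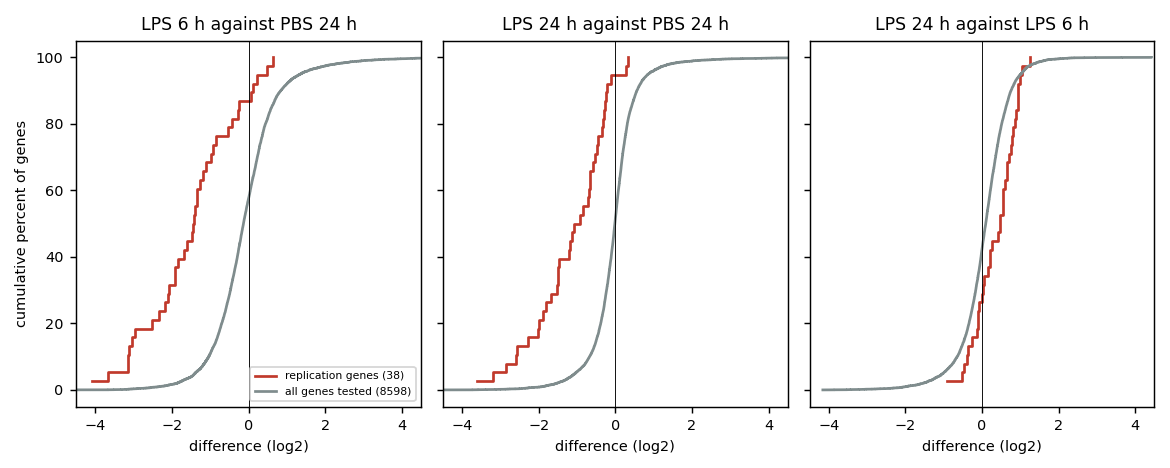
Cumulative percent of genes (y axis) by difference in normalized log2 intensity (x axis) for the 38 measured replication genes and all 8598 genes tested, in 3 comparisons. At the median the members' curve lies left of the curve of all genes against PBS, with medians of -1.43 at LPS 6 h and -0.99 at LPS 24 h. For LPS 24 h against LPS 6 h it lies right of it at the median, which is 0.47. In that comparison no member exceeded 1.26, while all genes reached 4.42.

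The scaling of the arrays shifts all genes at 6 h. The 1357 higher and 2256 lower genes of the main scaling became 779 and 3090 with each array centred on the median of all probes, and 2145 and 1523 with each centred on the median of the genes tested, as the median of all genes moved to -0.39 and 0.12. The members' median was then -1.75 and -1.25, and 31 and 29 members were lower at LPS 6 h. At LPS 24 h the count of lower members was 25 and 22 under these scalings, with 872 and 686 of all genes tested lower. The background step changed the size of the fall. Without background correction the members' median was -0.86 at LPS 6 h and -0.51 at LPS 24 h, against -1.43 and -0.99 in the main fit. In the authors' normalized table it was -0.87 and -0.52. The median of all genes was -0.08 and -0.01 under both.

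**Figure D2:**
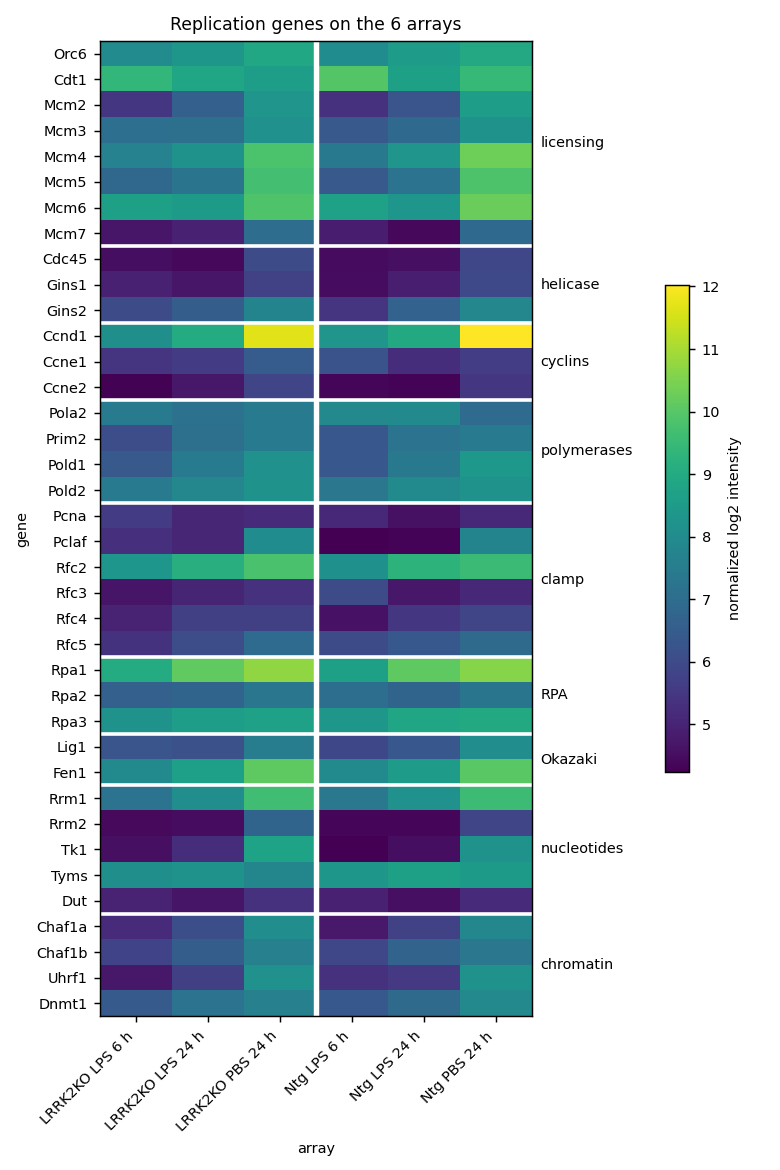
Normalized log2 intensity (colour) of the 38 measured replication genes (rows, grouped by role) on the 6 arrays (columns; 1 array per group). Most rows are brightest in the PBS column of each genotype, where the median member lay at 7.92 in LRRK2KO and 7.97 in Ntg cells.

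Of the licensing factors, which mark and load origins, 8 of 10 were measured. At LPS 6 h 7 fell, Orc6 and all 6 measured MCM subunits, and at LPS 24 h the 6 MCM subunits fell. Among these Mcm7 was detected in PBS only and so had to differ to enter. Mcm5, a subunit of the helicase ring, lay at 6.82 in LRRK2KO and 6.42 in Ntg cells at LPS 6 h, at 7.23 in LRRK2KO and 7.20 in Ntg cells at LPS 24 h, and at 9.71 in LRRK2KO and 9.85 in Ntg cells in PBS. All 4 LPS arrays were below both PBS arrays by more than 2 log2 units. The difference from PBS was -3.16 ± 0.18 at LPS 6 h (limma, adjusted p = 0.000362) and -2.57 ± 0.18 at LPS 24 h (adjusted p = 0.00125), the error being the model's standard error (SE) over 2 arrays per arm throughout. Mcm2 lay at 5.46 in LRRK2KO and 5.35 in Ntg cells at LPS 6 h, at 6.63 in LRRK2KO and 6.28 in Ntg cells at LPS 24 h, and at 8.31 in LRRK2KO and 8.59 in Ntg cells in PBS. It differed from PBS by -3.04 ± 0.19 at LPS 6 h and -1.99 ± 0.19 at LPS 24 h (adjusted p = 0.000472 and 0.00299).

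Among the other ring subunits, Mcm4 fell by 2.53 on the log2 scale at LPS 6 h and fell by 1.82 at LPS 24 h. Its 3 detected probes spread widely, between -2.53 and -0.71 at LPS 6 h, all of 1 sign. Mcm3 fell by 1.45 at LPS 6 h and fell by 1.20 at LPS 24 h, the later call being lost without either LPS 24 h array or the Ntg PBS array. Mcm6 fell by 1.39 and fell by 1.67 at the same times, so that Mcm6 alone among the measured subunits above background had its larger difference at 24 h. Mcm7 was not detected on any LPS array and was at least 3.40-fold lower at LPS 6 h and at least 3.70-fold lower at LPS 24 h (adjusted p = 0.00113 and 0.00232). Such a bound sets the PBS mean against the lowest signal that counted as detected on the LPS arrays, or the probe's own value where that was higher. The adjusted p-value printed beside a bound is that of the fitted difference and does not test the bound. Orc6, a subunit of the origin recognition complex, differed by -0.92 ± 0.14 at LPS 6 h (adjusted p = 0.00531) and by -0.46 ± 0.14 at LPS 24 h, which was not called (adjusted p = 0.0891).

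Cdt1, the MCM loader that geminin holds in check, was not called at either time, unlike the ring it loads. It lay at 9.39 in LRRK2KO and 9.94 in Ntg cells at LPS 6 h, at 8.84 in LRRK2KO and 8.65 in Ntg cells at LPS 24 h, and at 8.60 in LRRK2KO and 9.45 in Ntg cells in PBS. The arrays of both LPS arms overlapped the PBS arrays. Its differences from PBS were 0.64 ± 0.26 at LPS 6 h and -0.28 ± 0.26 at LPS 24 h, neither called (adjusted p = 0.0993 and 0.522). The first was called higher, at 0.92 (adjusted p = 0.0303), when the arrays were centred on the median of the genes tested.

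All 3 factors that activate the helicase were called lower at both times, but Cdc45 and Gins1 were detected in PBS only and so had to differ to enter. Gins2, a GINS subunit detected on all 6 arrays, lay at 6.00 in LRRK2KO and 5.43 in Ntg cells at LPS 6 h, at 6.53 in LRRK2KO and 6.69 in Ntg cells at LPS 24 h, and at 7.74 in LRRK2KO and 7.84 in Ntg cells in PBS. The difference was -2.08 ± 0.22 at LPS 6 h (adjusted p = 0.00154) and -1.18 ± 0.22 at LPS 24 h (adjusted p = 0.0198), the later call being lost without either LPS 24 h or either PBS array. Cdc45, which joins MCM and GINS into the moving helicase, read 6.05 in LRRK2KO and 5.88 in Ntg cells in PBS and was not detected with LPS. It was at least 1.70-fold lower at LPS 6 h and at least 1.85-fold lower at LPS 24 h (adjusted p = 0.00152 and 0.00356). Gins1, another GINS subunit, was likewise detected in PBS only, at 5.75 in LRRK2KO and 5.95 in Ntg cells, and was at least 1.57-fold and at least 1.71-fold lower at the same times (adjusted p = 0.0095 and 0.0244). Its call at LPS 24 h was lost without any 1 of the LPS 24 h or PBS arrays, without background correction, in the authors' normalized table and without the detection rule, and its call at LPS 6 h without the Ntg PBS array.

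The cyclins that carry cells through G1 into S phase gave 2 members that fell at both times and 1 with no call. Of the 2, Ccne2 had to differ to enter. Ccnd1, cyclin D1, the growth-factor-induced partner of Cdk4 and Cdk6, lay at 8.10 in LRRK2KO and 8.30 in Ntg cells at LPS 6 h, at 9.04 in LRRK2KO and 8.98 in Ntg cells at LPS 24 h, and at 11.68 in LRRK2KO and 12.03 in Ntg cells in PBS. The genotypes lay close together in each arm and the arms did not overlap. It was 12.6-fold lower at LPS 6 h (-3.66 ± 0.16, adjusted p = 0.000239) and 7.19-fold lower at LPS 24 h (-2.85 ± 0.16, adjusted p = 0.000992), and its 3 detected probes ran between -3.98 and -3.66 at 6 h. Ccne2, one of the E-type cyclins that drive Cdk2, was detected in PBS only, at 5.86 in LRRK2KO and 5.47 in Ntg cells, and was at least 1.38-fold and at least 1.50-fold lower at LPS 6 h and LPS 24 h (adjusted p = 0.00313 and 0.0119). The later call was lost without either LPS 24 h array or either PBS array, without background correction and in the authors' normalized table.

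The other E-type cyclin was called in no comparison. Ccne1 lay at 5.44 in LRRK2KO and 6.22 in Ntg cells at LPS 6 h, at 5.61 in LRRK2KO and 5.26 in Ntg cells at LPS 24 h, and at 6.51 in LRRK2KO and 5.66 in Ntg cells in PBS. The arms overlapped, and it was called at neither time (-0.25 ± 0.37 and -0.65 ± 0.37, adjusted p = 0.601 and 0.3).

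**Figure D3:**
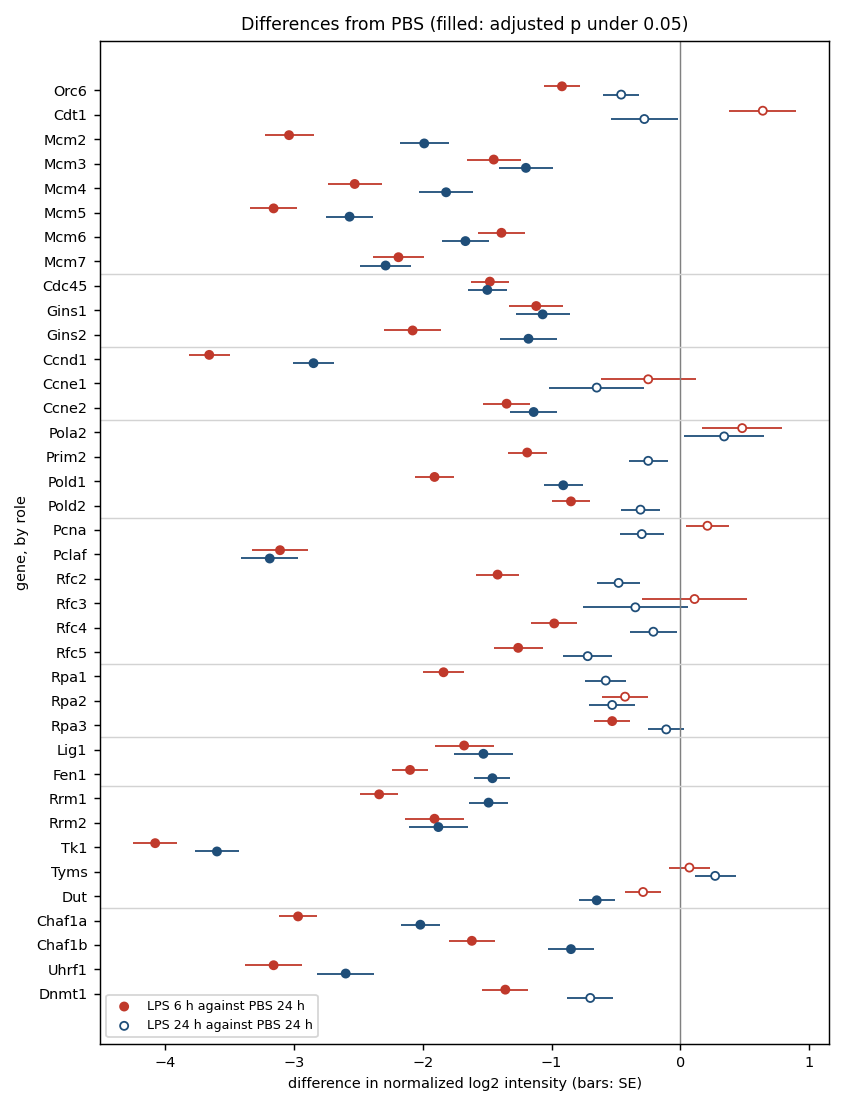
Difference from PBS 24 h in normalized log2 intensity (x axis) for each measured replication gene (y axis, grouped by role), at LPS 6 h in red and LPS 24 h in blue, with bars for the SE and filled points where the adjusted p is under 0.05. At LPS 6 h 30 points are filled and at LPS 24 h 22, all on the negative side; Tk1 lies farthest left at both times. Points of genes below detection on the LPS arrays show the fitted value, which is no bound.

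Of the 7 polymerase and primase genes 4 were measured. At LPS 6 h 3 of them fell and at LPS 24 h 1 did. Pold1, the catalytic subunit of polymerase delta, lay at 6.42 in LRRK2KO and 6.35 in Ntg cells at LPS 6 h, at 7.41 in LRRK2KO and 7.37 in Ntg cells at LPS 24 h, and at 8.18 in LRRK2KO and 8.40 in Ntg cells in PBS. It fell by 1.91 on the log2 scale at LPS 6 h (SE 0.15, adjusted p = 0.000758) and fell by 0.91 at LPS 24 h (adjusted p = 0.0157), the later call being lost without either LPS 24 h or either PBS array. Prim2, the large subunit of primase, lay at 6.08 in LRRK2KO and 6.36 in Ntg cells at LPS 6 h, at 7.11 in LRRK2KO and 7.19 in Ntg cells at LPS 24 h, and at 7.40 in both genotypes in PBS. Its difference was -1.19 ± 0.15 at LPS 6 h (adjusted p = 0.00287) and -0.25 ± 0.15 at LPS 24 h (adjusted p = 0.315).

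Pold2, the accessory subunit of polymerase delta, followed Prim2, with -0.85 ± 0.15 at LPS 6 h (adjusted p = 0.0073) and -0.31 ± 0.15 at LPS 24 h (adjusted p = 0.218). Pola2, the regulatory subunit of polymerase alpha, was at or above the PBS array of its genotype on 3 of the 4 LPS arrays. It lay at 7.49 in LRRK2KO and 7.90 in Ntg cells at LPS 6 h, at 7.17 in LRRK2KO and 7.94 in Ntg cells at LPS 24 h, and at 7.48 in LRRK2KO and 6.95 in Ntg cells in PBS. Neither difference was called (0.48 ± 0.31 and 0.34 ± 0.31, adjusted p = 0.253 and 0.51).

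In the clamp and its loader, 4 of 6 members fell at LPS 6 h and 1 at LPS 24 h. Pclaf, the PCNA-associated factor, lay at 5.32 in LRRK2KO and 4.23 in Ntg cells at LPS 6 h, at 5.08 in LRRK2KO and 4.31 in Ntg cells at LPS 24 h, and at 8.02 in LRRK2KO and 7.74 in Ntg cells in PBS. It was detected on the LRRK2KO LPS arrays but not on the Ntg ones, so the Ntg values are near background. Its differences were -3.11 ± 0.22 at LPS 6 h (adjusted p = 0.000548) and -3.19 ± 0.22 at LPS 24 h (adjusted p = 0.00125). Pcna itself, the clamp that serves both replication and repair, was dim and was not called. It lay at 5.59 in LRRK2KO and 5.09 in Ntg cells at LPS 6 h, at 5.08 in LRRK2KO and 4.58 in Ntg cells at LPS 24 h, and at 5.18 in LRRK2KO and 5.09 in Ntg cells in PBS (0.21 ± 0.17 and -0.30 ± 0.17, adjusted p = 0.352 and 0.285). A probe this close to background bounds the transcript poorly, with 4 of 6 arrays detected.

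The small subunits of replication factor C, the clamp loader, gave 3 calls at LPS 6 h, for Rfc2, Rfc4 and Rfc5, and none at LPS 24 h. Rfc2 lay at 8.34 in LRRK2KO and 8.15 in Ntg cells at LPS 6 h, at 9.11 in LRRK2KO and 9.26 in Ntg cells at LPS 24 h, and at 9.78 in LRRK2KO and 9.55 in Ntg cells in PBS. It differed by -1.42 ± 0.17 at LPS 6 h (adjusted p = 0.0021), with its 4 probes between -1.43 and -1.38, and by -0.48 ± 0.17 at LPS 24 h (adjusted p = 0.11). Rfc5 differed by -1.26 ± 0.19 at LPS 6 h (adjusted p = 0.00504) and -0.72 ± 0.19 at LPS 24 h (adjusted p = 0.0613). Rfc4 was not detected at LPS 6 h and was at least 1.50-fold lower there (adjusted p = 0.00835), a call lost without the Ntg PBS array, and its LPS 24 h difference was -0.21 ± 0.18 (adjusted p = 0.484). Rfc3 was detected on 3 arrays and went opposite ways in the genotypes at LPS 6 h. It lay at 4.66 in LRRK2KO and 6.00 in Ntg cells at LPS 6 h, at 5.03 in LRRK2KO and 4.72 in Ntg cells at LPS 24 h, and at 5.34 in LRRK2KO and 5.10 in Ntg cells in PBS, with no call at either time (adjusted p = 0.838 and 0.62).

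The 3 subunits of replication protein A, which coats single-stranded DNA at forks and at damage, did not share a size. Rpa1, the large DNA-binding subunit, lay at 9.02 in LRRK2KO and 8.67 in Ntg cells at LPS 6 h, at 10.12 in LRRK2KO and 10.08 in Ntg cells at LPS 24 h, and at 10.75 in LRRK2KO and 10.61 in Ntg cells in PBS. It was 3.58-fold lower at LPS 6 h (-1.84 ± 0.16, adjusted p = 0.000852), while -0.58 ± 0.16 at LPS 24 h was not called (adjusted p = 0.0583). Rpa3, the smallest subunit, lay at 8.22 in LRRK2KO and 8.37 in Ntg cells at LPS 6 h, at 8.58 in LRRK2KO and 8.86 in Ntg cells at LPS 24 h, and at 8.68 in LRRK2KO and 8.97 in Ntg cells in PBS. The difference of -0.53 ± 0.14 at LPS 6 h was called (adjusted p = 0.0306) but lost without any 1 of the 6 arrays, without the genotype term and with arrays centred on the genes tested. Rpa2, the subunit phosphorylated after DNA damage, lay at 6.63 in LRRK2KO and 7.06 in Ntg cells at LPS 6 h, at 6.74 in LRRK2KO and 6.73 in Ntg cells at LPS 24 h, and at 7.28 in LRRK2KO and 7.26 in Ntg cells in PBS. Its LPS arrays were all below its PBS arrays, and neither difference was called (-0.43 ± 0.18 and -0.53 ± 0.18, adjusted p = 0.0985 and 0.0999).

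Both enzymes that join Okazaki fragments fell at both times. Fen1, the flap nuclease, lay at 7.93 in LRRK2KO and 7.97 in Ntg cells at LPS 6 h, at 8.63 in LRRK2KO and 8.55 in Ntg cells at LPS 24 h, and at 10.08 in LRRK2KO and 10.02 in Ntg cells in PBS. The genotypes differed by less than 0.1 log2 units in every arm. It differed from PBS by -2.10 ± 0.14 at LPS 6 h (adjusted p = 0.000541) and -1.46 ± 0.14 at LPS 24 h (adjusted p = 0.003). Lig1, the ligase that seals the nick, lay at 6.29 in LRRK2KO and 5.93 in Ntg cells at LPS 6 h, at 6.16 in LRRK2KO and 6.36 in Ntg cells at LPS 24 h, and at 7.54 in LRRK2KO and 8.04 in Ntg cells in PBS (-1.68 ± 0.23 and -1.53 ± 0.23, adjusted p = 0.00344 and 0.0106). Its later call was lost without either LPS 24 h array or the Ntg PBS array.

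**Figure D4:**
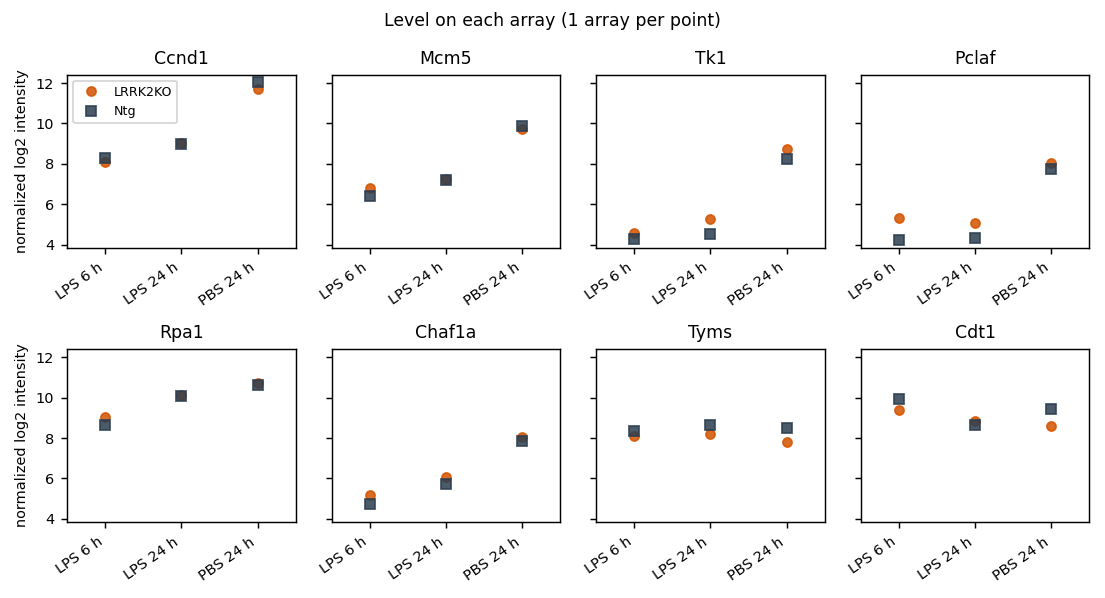
Normalized log2 intensity (y axis) of 8 replication genes on each array, by arm (x axis), with circles for LRRK2KO and squares for Ntg, 1 array per point. Ccnd1, Mcm5, Tk1, Pclaf, Chaf1a and Rpa1 are lower on all 4 LPS arrays than on both PBS arrays. For Rpa1 the gap is small at LPS 24 h, with 10.12 and 10.08 against 10.75 and 10.61 in PBS (LRRK2KO and Ntg). Tyms and Cdt1 show no such separation.

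The enzymes that make deoxynucleotides fell in 3 of 5 at LPS 6 h and 4 of 5 at LPS 24 h. Rrm2 and Dut, detected in PBS only, had to differ to enter. Tk1, thymidine kinase of the salvage route, lay at 4.55 in LRRK2KO and 4.26 in Ntg cells at LPS 6 h, at 5.26 in LRRK2KO and 4.52 in Ntg cells at LPS 24 h, and at 8.75 in LRRK2KO and 8.22 in Ntg cells in PBS. It was not detected at LPS 6 h, where it was at least 9.77-fold lower than in PBS (adjusted p = 0.000235), and at LPS 24 h it was detected in LRRK2KO cells only and differed by -3.60 ± 0.17 (adjusted p = 0.000575). A dimmer Tk1 probe gave -0.77 at LPS 6 h. Rrm1, the large subunit of ribonucleotide reductase, lay at 7.20 in LRRK2KO and 7.35 in Ntg cells at LPS 6 h, at 8.05 in LRRK2KO and 8.19 in Ntg cells at LPS 24 h, and at 9.65 in LRRK2KO and 9.57 in Ntg cells in PBS. It was 5.05-fold lower at LPS 6 h and 2.81-fold lower at LPS 24 h (adjusted p = 0.000485 and 0.00336).

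Rrm2, the subunit that limits reductase activity to S phase, was detected in PBS only, at 6.73 in LRRK2KO and 5.87 in Ntg cells, and was at least 2.14-fold and at least 2.33-fold lower at LPS 6 h and LPS 24 h (adjusted p = 0.00217 and 0.0054). Dut, which removes dUTP, was also detected in PBS only, and its bounds were small, at least 1.05-fold at LPS 6 h, which was not called (adjusted p = 0.143), and at least 1.14-fold at LPS 24 h (adjusted p = 0.0319), a call lost without either LPS 24 h or either PBS array, without background correction, in the authors' normalized table, without the genotype term and with a variance trend. Tyms, thymidylate synthase, which makes dTMP anew, was not called at either time. It lay at 8.10 in LRRK2KO and 8.35 in Ntg cells at LPS 6 h, at 8.20 in LRRK2KO and 8.65 in Ntg cells at LPS 24 h, and at 7.82 in LRRK2KO and 8.48 in Ntg cells in PBS (0.07 ± 0.16 and 0.27 ± 0.16, adjusted p = 0.732 and 0.316).

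All 4 chromatin factors fell at LPS 6 h and 3 at LPS 24 h. Uhrf1, which brings Dnmt1 to newly made DNA, lay at 4.74 in LRRK2KO and 5.35 in Ntg cells at LPS 6 h, at 5.70 in LRRK2KO and 5.51 in Ntg cells at LPS 24 h, and at 8.19 in LRRK2KO and 8.22 in Ntg cells in PBS. The LRRK2KO LPS 6 h array was below detection for Uhrf1, so its value there is near background. The difference was -3.16 ± 0.22 at LPS 6 h (adjusted p = 0.000541), and the gene was 6.08-fold lower at LPS 24 h (adjusted p = 0.00209). Chaf1a, the large subunit of chromatin assembly factor 1, lay at 5.18 in LRRK2KO and 4.76 in Ntg cells at LPS 6 h, at 6.09 in LRRK2KO and 5.74 in Ntg cells at LPS 24 h, and at 8.04 in LRRK2KO and 7.85 in Ntg cells in PBS. On the Ntg LPS 6 h array it was below detection, so the earlier difference rests in part on a value near background. Its differences were -2.97 ± 0.15 and -2.02 ± 0.15 (adjusted p = 0.000295 and 0.00138), and those of its partner Chaf1b were -1.62 ± 0.18 and -0.85 ± 0.18 (adjusted p = 0.00177 and 0.0288). The later Chaf1b call was lost without either LPS 24 h or either PBS array and without the detection rule. Dnmt1, the methyltransferase that copies methylation to the new strand, lay at 6.45 in LRRK2KO and 6.37 in Ntg cells at LPS 6 h, at 7.20 in LRRK2KO and 6.94 in Ntg cells at LPS 24 h, and at 7.63 in LRRK2KO and 7.91 in Ntg cells in PBS. It was lower at LPS 6 h (-1.36 ± 0.18, adjusted p = 0.00309) and just missed the threshold at LPS 24 h (-0.70 ± 0.18, adjusted p = 0.0513).

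Set against LPS 6 h rather than PBS, part of the genes were higher again at LPS 24 h. In this comparison 14 members were higher (36.8%), against 14.1% of all genes, and none was lower (9.68% of all genes), with 3 lower at an unadjusted p under 0.05 in limma (15.4% of all genes). The median difference was 0.47 for the members and 0.10 for all genes. The LPS arrays are shared with the comparisons against PBS. Of the 14, Mcm2, Gins2, Ccnd1, Pold1, Fen1, Rrm1, Chaf1a and Chaf1b were still lower than PBS at LPS 24 h, and Prim2, Pold2, Rfc2, Rfc4, Rpa1 and Dnmt1 were not called against PBS at that time. Rpa1 had the largest such difference, 1.26 ± 0.16 (adjusted p = 0.00736), and Mcm2 was higher by 1.05 ± 0.19 (adjusted p = 0.0168). Mcm3, Mcm4, Mcm5, Mcm6, Mcm7, Cdc45, Gins1, Ccne2, Pclaf, Lig1, Rrm2, Tk1 and Uhrf1 were lower than PBS at both times with no call between the times, although Mcm7, Cdc45, Gins1, Ccne2 and Rrm2 were below detection at both.

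The 14 members were each higher at LPS 24 h than at LPS 6 h in both genotypes. Rpa1 was higher by 1.10 in LRRK2KO and 1.42 in Ntg cells, and Pold2 by 0.43 and 0.65. Their calls needed both arrays of an LPS arm. Leaving 1 out leaves that arm with 1 array, and calls among all genes fell as well, so a lost call does not show that 1 array made the difference. With the Ntg LPS 24 h array left out the 14 members became 0, with the LRRK2KO LPS 24 h array left out 1, and with the Ntg LPS 6 h array left out 2. In both genotypes 24 members had the higher level at LPS 24 h (63.2%), against 46.0% of all genes. The median difference over all genes was 0.10, and it was 0.29 and -0.08 under the 2 scalings given next, in their order. Centring on the median of all probes gave 20 members and 1951 higher against 567 lower genes, and centring on the median of the genes tested gave 11 members and 853 higher against 1222 lower genes, where the main scaling had 1216 and 832. Cdt1, at -0.92 ± 0.26 (adjusted p = 0.0533), was called lower under both of these scalings. For LPS 24 h against PBS the count of 22 became 14 without the LRRK2KO LPS 24 h array, the Ntg LPS 24 h array or the Ntg PBS array, and 16 without the LRRK2KO PBS array. At LPS 6 h it stayed between 27 and 31.

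The genotype comparison gave no call among these genes. No member was called higher or lower in LRRK2KO than in Ntg cells, against 0.163% of all genes called higher and 0.302% lower, and at an unadjusted p under 0.05 limma counted 4 higher and 1 lower, 10.5% and 2.63% of the members, against 7.33% and 8.76% of all genes. Their differences ran between -0.45 and 0.71 with a median of 0.02, the SE lying between 0.12 and 0.33. Under the alternative scalings and backgrounds the 14 higher and 26 lower genes of the whole set became 99 and 345 with the median of all probes, 43 and 51 without background correction, and 46 and 54 in the authors' own normalized table, with no member called. Pclaf had the largest difference, 0.71 (adjusted p = 0.153), followed by Tk1 at 0.52, and Tyms was the lowest at -0.45 (adjusted p = 0.202). Pcna, Pclaf, Rpa1, Rrm2, Tk1, Dut and Chaf1a were higher in LRRK2KO cells in 3 of 3 arms, which is 7 of 38 members (18.4%), against 19.0% of all genes. Orc6, Prim2, Rpa3 and Tyms were lower in 3 of 3, which is 4 of 38 (10.5%), against 20.2% of all genes.

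Within a single arm there is no replicate and no test. At LPS 6 h 2 members differed by at least 2-fold between LRRK2KO and Ntg cells (5.26%), against 3.49% of all genes. They were Pclaf, 1.09 log2 units higher in LRRK2KO cells, and Rfc3, with a difference of -1.34, and in each case the dimmer array was below detection. No member did at LPS 24 h (3.93% of all genes) or in PBS (2.74% of all genes). The LPS response, read within each genotype, had a median of -1.49 in both genotypes at LPS 6 h, against -0.10 in LRRK2KO and -0.15 in Ntg cells for all genes. At LPS 24 h the members' median was -1.07 in LRRK2KO and -1.05 in Ntg cells, against -0.04 and -0.01 for all genes in LRRK2KO and Ntg cells. At least 2-fold lower at LPS 6 h were 26 members in each genotype (68.4%), against 9.99% of all genes in LRRK2KO and 14.3% in Ntg cells. At LPS 24 h 20 members were in each genotype (52.6%), against 5.29% of all genes in LRRK2KO and 6.06% in Ntg cells. The response differed by at least 2-fold between the genotypes for 2 members at LPS 6 h, against 5.14% of all genes, and for 2 at LPS 24 h, against 2.64% of all genes.

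**Figure D5:**
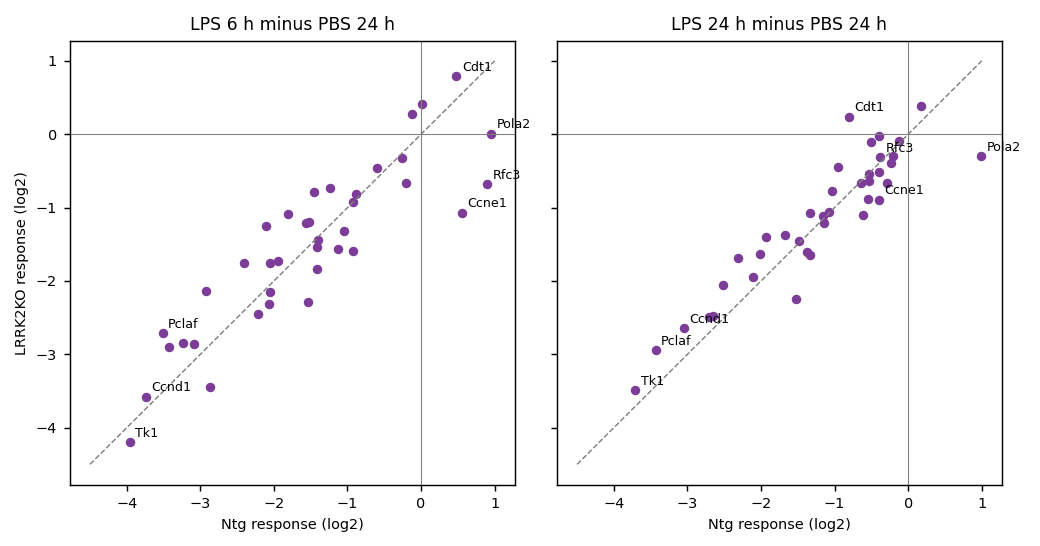
LPS response in LRRK2KO cells (y axis) by the response in Ntg cells (x axis), each as 1 LPS array minus 1 PBS array of the same genotype in log2 units, for the 38 measured replication genes at LPS 6 h and LPS 24 h; the dashed line marks equal responses. Most points lie near the line in the lower left, where 32 members at LPS 6 h (47.7% of all genes) and 35 at LPS 24 h (39.2% of all genes) were lower in both genotypes, and Ccne1, Rfc3, Pola2 and Cdt1 lie off it.

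Genes that act beside the members were tested in the same fit, as lists chosen by function. The background for the counts of these lists and of the marker lists is the share of all genes called. It was 26.2% lower and 15.8% higher at LPS 6 h, and 8.99% lower and 6.54% higher at LPS 24 h. In these lists too a few genes entered through the PBS arrays alone, 2 of the first list, 2 of the fork and origin factors, 1 of the other nucleotide genes, 3 of the checkpoint and repair genes and 1 of the histones. Of 25 measured E2F, retinoblastoma and cyclin-dependent kinase genes 12 were lower and 4 higher at LPS 6 h, and 6 lower and 1 higher at LPS 24 h. Cdk1, the mitotic kinase, fell by 2.54 on the log2 scale at LPS 6 h and fell by 2.44 at LPS 24 h, and Cdkn2c, an inhibitor of Cdk4 and Cdk6, fell by 2.02 and fell by 1.66. E2f2, an activating E2F factor, was detected in PBS only and was at least 2.43-fold and at least 2.65-fold lower. Of 29 other fork and origin factors 16 were lower and 5 higher at LPS 6 h, and 8 lower and 1 higher at LPS 24 h. Among them Top2a, which untangles replicated DNA, fell by 3.08 and fell by 3.02, Clspn, which relays fork stress to Chek1, was at least 3.45-fold and at least 3.76-fold lower, and Mcm10 fell by 2.08 at LPS 6 h and was at least 5.17-fold lower at LPS 24 h. For Top2a the Ntg LPS 6 h array was below detection, so its earlier fall rests in part on a value near background.

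The other nucleotide genes held calls in both directions, as all genes did. Of 32 measured, 15 were lower and 4 higher at LPS 6 h, where 26.2% of all genes were lower and 15.8% higher. At LPS 24 h 2 were lower and 2 higher, where 8.99% of all genes were lower and 6.54% higher. Upp1, which breaks down uridine, rose by 5.15 ± 0.17 at LPS 6 h and 7.15 ± 0.17 at LPS 24 h (limma, adjusted p = 0.000161 and 5.89e-05). Its LRRK2KO PBS array was below detection, so both rises rest in part on a value near background. Samhd1, which degrades deoxynucleotides and limits viral replication in myeloid cells, rose by 1.88 and 1.35, and Cmpk2, an interferon-induced mitochondrial nucleotide kinase, rose by 3.91 at LPS 6 h and read 0.49 ± 0.17 at LPS 24 h (adjusted p = 0.112).

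Checkpoint and repair genes were lower in 10 of 13 at LPS 6 h and 6 of 13 at LPS 24 h, with none higher. Chek2, a checkpoint kinase, was at least 3.71-fold lower at LPS 6 h and fell by 1.51 at LPS 24 h, Rad54l, of homologous recombination, was at least 3.76-fold and at least 4.09-fold lower, and Ung, which removes uracil from DNA, fell by 2.07 and fell by 1.72. For Ung the Ntg LPS 6 h array was below detection. All 15 measured mitotic genes were lower at both times, but 6 of them (Plk1, Cdc20, Kif11, Kif22, Nusap1 and Ndc80) were detected in PBS only and so had to differ to enter. The other 9 were lower at both times as well, and with genes below detection set at their bound the list's medians were -2.08 and -1.82. Cenpa, the centromeric histone, fell by 3.29 and fell by 3.07, the earlier fall resting in part on an Ntg LPS 6 h array below detection. Of 10 histone probes 6 were lower at LPS 6 h and 3 at LPS 24 h, and H2ac11, H2ac12 and H2ac15, near-identical genes whose probes may share signal, had differences between -3.51 and -2.99 at LPS 6 h, all called.

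Of 15 genes of growth arrest 7 were lower and 4 higher at LPS 6 h, where 26.2% of all genes were lower and 15.8% higher. At LPS 24 h 3 were lower and 2 higher, where 8.99% of all genes were lower and 6.54% higher. Gadd45b, a stress-induced gene, rose by 3.53 and 2.33, Sesn1, a p53 and FoxO target, fell by 5.27 and fell by 2.34, and Gas6, a ligand of TAM receptors, fell by 1.58 and fell by 2.16. Of the 8 genes of microglial growth signalling, 2 were higher and 2 lower at LPS 6 h, and 1 higher and 2 lower at LPS 24 h. Csf2, the granulocyte-macrophage growth factor, was at least 16.2-fold higher at LPS 6 h and at least 1.47-fold higher at LPS 24 h. Csf1, the ligand of the receptor microglia need to survive, was at least 1.95-fold higher at LPS 6 h (adjusted p = 0.011). Csf1 was detected at LPS 6 h only and Csf2 on LPS arrays only, so both had to differ to enter. Igf1 fell by 0.64 and fell by 3.37.

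Markers of cell identity moved as well, and their part in the result was not tested. The summed linear level of the 11 measured microglial markers was 26500 to 32000 on the LRRK2KO LPS arrays and 22800 to 24500 on the Ntg LPS arrays, against 50300 and 50400 on the LRRK2KO and Ntg PBS arrays. Of these markers 7 were lower and 1 higher at LPS 6 h, and 6 lower and 1 higher at LPS 24 h, among them Trem2, a lipid receptor, with differences of -0.84 and -4.70, and Cx3cr1, the fractalkine receptor, with -2.18 and -4.14. Olfml3 was not called at LPS 6 h (0.15 ± 0.21) and differed by -2.27 at LPS 24 h. The 6 measured astrocyte markers summed to 797 and 1750 in LRRK2KO and to 1130 and 2350 in Ntg cells at LPS 6 h and LPS 24 h, against 296 in LRRK2KO and 311 in Ntg cells in PBS. Of that list Gja1, a gap junction gene and the brightest of the list on every array, rose by 2.67 and 4.05. The rise in the sums was mostly that of Gja1. Slc1a2 was at least 1.67-fold higher at LPS 6 h, but it was detected at LPS 6 h only and so had to differ to enter. The other 4 were not called at either time.

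In the remaining marker lists, Mbp, of myelin, fell by 2.90 and fell by 1.14 on the log2 scale and the other 3 of 4 measured oligodendrocyte markers were not called. For Mbp the Ntg LPS 6 h array was below detection, so its earlier fall rests in part on a value near background. Neither of 2 fibroblast markers nor any of 3 choroid plexus markers was called against PBS. Of 2 measured markers of other myeloid cells, S100a8, a calgranulin subunit, rose by 2.85 and 4.57 and Mrc1, the mannose receptor, fell by 1.21 and fell by 2.31.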

How the data were processed

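RNA of microglia from LRRK2KO and Ntg mice in 3 arms was measured on 6 Illumina bead arrays, 1 per group. The deposited table holds, per the file headers, an average intensity and a detection p-value for each of 45281 probes on each array, before normalization. The submitters' processing notes name BeadStudio. The authors' series matrix holds linear intensities with the same quartiles on every array, read from the values as quantile normalized without background subtraction, and its log2 values served as an alternative. Of the probes 34885 had 1 gene symbol in the platform annotation, 18 several and 10378 none.

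Intensities were corrected and normalized with limma 3.58.1 in R 4.3.3: normexp with detection p-values (neqc, offset 16), quantile normalization and log2. Probes detected at p under 0.01 on at least 2 arrays were kept and the brightest stood for its gene. An additive limma model of genotype and arm over all 6 arrays left 2 residual degrees of freedom, with 3.88 prior degrees of freedom from the other genes, so its error holds array noise and any interaction. P-values are two-sided and were adjusted by Benjamini-Hochberg over 8598 genes, with a call at an adjusted p-value under 0.05. Differences between single arrays are untested and were counted at 2-fold. The procedure was checked on simulated data.

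The members and all gene lists were chosen with earlier results of these data known. Values on every array are given, within each role, for the 2 members with the largest and the 1 with the smallest difference from PBS and for those with opposite directions in the genotypes. From other lists up to 3 genes with the largest differences are named. Alternatives covered scaling, background, the detection rule, probe choice, the model and each array left out.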

Additional observations from a re-analysis of the deposited data

Results flagged for a closer look

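For 4 members the LPS response, read as 1 LPS array minus the PBS array of the same genotype, went opposite ways in LRRK2KO and Ntg cells with a gap of at least 2-fold, and in none of them was the difference tested. A gap of at least 2-fold, whatever the directions, was held by 5.26% of the members at each LPS time. Among all genes 5.14% held one at LPS 6 h and 2.64% at LPS 24 h. Ccne1, an E-type cyclin, responded at LPS 6 h by -1.07 in LRRK2KO and 0.56 in Ntg cells, a gap of -1.63 log2 units, and with arrays centred on the median of all probes the Ntg response was -0.04. Rfc3, a clamp loader subunit, responded at LPS 6 h by -0.68 in LRRK2KO and 0.90 in Ntg cells, a gap of -1.58. The LRRK2KO LPS 6 h array was below detection for Rfc3, so that response rests on a value near background. Pola2, of polymerase alpha, responded at LPS 24 h by -0.30 in LRRK2KO and 0.99 in Ntg cells, a gap of -1.29. Cdt1, the MCM loader, responded at LPS 24 h by 0.24 in LRRK2KO and -0.80 in Ntg cells, a gap of 1.05. Without background correction the gaps were -0.70, -0.52, -0.87 and 0.90.

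Outside the comparisons, 2 members that missed the detection rule were detected on 1 array each, the Ntg PBS array. The lowest detection p-value was 0.00427 for Cdc6, which loads MCM rings with Cdt1, and 0.00962 for Pole, the leading-strand polymerase.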

How the results depend on the processing

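Across 15 other fits, 6 of them leaving out 1 array, no called member changed direction. Of the members lower at LPS 6 h 27 of 30 were called in every fit that measured them, and of those lower at LPS 24 h 14 of 22 were. None of the 14 members higher at LPS 24 h than at LPS 6 h was. No paired analysis was possible because every group holds only replicate number 1, and the genotype term of the model already sets LPS against PBS within each genotype. Slide as a block was not run, since neither labels nor headers name slides. With 1 array per group, depth in the sense of signal over background limits most the 6 members detected in PBS only. Centring on the median of the genes tested was chosen after seeing the data.

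Leaving out 1 array at a time, members lower at LPS 24 h ranged over 14 to 24 and those lower at LPS 6 h over 27 to 31. Members higher at LPS 24 h than at LPS 6 h ranged over 0 to 13 and members lower over 0 to 2, and members higher at LPS 6 h than in PBS over 0 to 1, Rfc3 without the LRRK2KO LPS 6 h array and Pola2 without the LRRK2KO PBS array. All genes called ranged over 319 to 1633 of a main 1335 for LPS 24 h against PBS, 1815 to 3325 of 3613 for LPS 6 h against PBS, 161 to 1976 of 2048 between the LPS times and 0 to 122 of 40 between LRRK2KO and Ntg.

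Without the genotype term, all genes called were 712 for LPS 24 h against PBS and 1257 between the LPS times, and without the arm term 0 for LRRK2KO against Ntg. That genotype count was also 444 with median scaling, 76 with the median of the genes tested, 94 without background correction, 100 in the series matrix, 67 with the mean of detected probes, 183 with a variance trend and 0 without the detection rule. One member, Cdt1, was called lower at LPS 24 h than at LPS 6 h (count 1) with median scaling, without background correction, in the series matrix, with detection on all 6 arrays and with a variance trend, and 3 members were (Cdt1, Dut and Pcna) with the median of the genes tested, where 1 member, Cdt1, was higher at LPS 6 h than in PBS. Members detected were 25 on all 6 arrays.

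Members 2-fold apart between LRRK2KO and Ntg at LPS 6 h were 1 with median scaling and 0 without background correction, in the series matrix or with detection on all 6 arrays, and in PBS 2 with median scaling. Members at least 2-fold lower at LPS 6 h were 16 in LRRK2KO and 17 in Ntg cells without background correction and in the series matrix, and 16 in Ntg cells with detection on all 6 arrays. At LPS 24 h they were 11 in LRRK2KO and 13 in Ntg cells under the first pair, and 11 in each with detection on all 6 arrays. The cause was not tested.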
